A study of Mus musculus with 6 samples.

Results

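The genes for signal regulatory proteins (SIRPs) listed by name for this account, Sirpa, Sirpb1a, Sirpb1b and Sirpb1c, and the gene for the SIRPA ligand, Cd47, were followed in mouse lung cells after C1q, the complement protein that starts the classical pathway by binding its targets, was given through the trachea. They are 5 of the 26890 genes in the count table. They were chosen by gene name, with no threshold, but with the CPM values of these C1q and saline libraries already known (CPM are counts scaled to a common library size). The differences of the 5 genes between the groups are therefore given as a description, with no p-value for any of them. Counts of calls among the 5 are given only beside the share of all genes called. The groups were lungs given C1q (20 µg per mouse, 3 libraries) and lungs given saline (3 libraries), all from wild-type C57BL/6 mice at day 3. Saline was the only control, and the treatment protocol is worded alike for all libraries and speaks of C1q. Which libraries had saline is therefore known from the treatment label alone. Lungs were digested with enzymes, the middle layer of a Percoll gradient was lysed, and 5′-end libraries were made from poly(A) RNA, so each library mixes all cell types of that layer. The labels do not say that each library is a separate animal. The p-values below measure the spread between these libraries, which may be technical.

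SIRPA is an inhibitory receptor of macrophages, monocytes, neutrophils and some dendritic cells. When it binds CD47, an immunoglobulin-family protein present on nearly all cells, phosphatases gather at its tail and engulfment of the CD47-bearing cell is restrained. The SIRPB1 proteins have a similar outer part but a short tail, and signal through the adaptor DAP12 (gene Tyrobp) toward activation. In humans SIRPB1 does not bind CD47. In the lung, the surfactant proteins A and D are further ligands of SIRPA.

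The 5 genes lie at 3 places on GRCm38. Sirpa spans chr2:129592835-129632228 on the plus strand, and Cd47 spans chr16:49800533-49915010 on the plus strand. The Sirpb1 genes lie side by side on the minus strand of chromosome 3, Sirpb1a at chr3:15371653-15426520, Sirpb1b at chr3:15495751-15575065 and Sirpb1c at chr3:15795145-15848528. All 5 are annotated as protein-coding. The 1 annotated gene that overlaps any of them is an antisense gene within Sirpb1b, on the opposite strand.

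The 3 Sirpb1 genes are near copies, which bears on every count below. Each has an annotated coding transcript of 1499 bases in 6 exons, the one compared here. GENCODE M21 lists 6 coding transcripts for Sirpb1c and 3 each for Sirpb1b and Sirpb1a, and the others were not compared. Sirpb1c and Sirpb1b differed at 21 of the 1499 positions (98.6% identity). Sirpb1a differed from each of the others at 34 positions (97.7% identity). From the annotated 5′ end, Sirpb1c and Sirpb1b were identical over the first 150 bases, while Sirpb1a differed from both at position 12. A 5′ read that began at this start and ended before position 151 therefore carries no base that separates Sirpb1c from Sirpb1b. Read length and the handling of reads that match several genes are not given in the sources used. The separate counts of the 3 genes are uncertain for that reason.

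**Figure D1:**
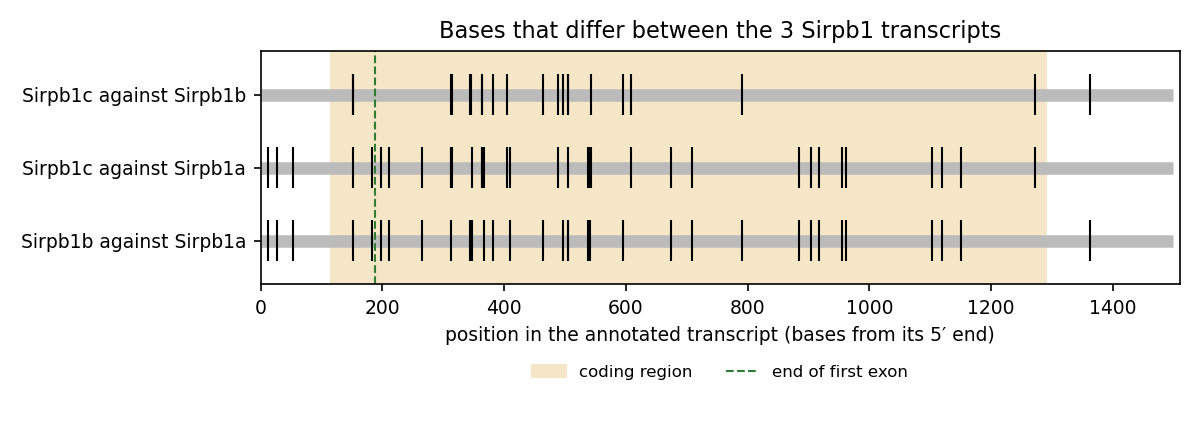
Positions at which the annotated 1499-base transcripts of the 3 Sirpb1 genes differ, counted in bases from the 5′ end, with 1 row per pair. Vertical ticks are differing bases, shading is the coding region and the dashed line is the end of the first exon at base 188. Sirpb1c and Sirpb1b share their first 150 bases.

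The coding part of the first exon holds the first bases that tell Sirpb1c from Sirpb1b. It is shown because 5′ reads that begin at the annotated start could reach it, but read positions were not examined. It covers transcript positions 116 to 188, which is 73 bases, at chr3:15848341-15848413 in Sirpb1c, chr3:15574878-15574950 in Sirpb1b and chr3:15426333-15426405 in Sirpb1a. Sequences are from the GENCODE M21 transcripts (GRCm38), read 5′ to 3′ on the minus strand. Capitals mark the 3 positions at which the genes are not all alike.
Sirpb1c: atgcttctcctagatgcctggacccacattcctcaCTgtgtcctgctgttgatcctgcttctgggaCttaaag
Sirpb1b: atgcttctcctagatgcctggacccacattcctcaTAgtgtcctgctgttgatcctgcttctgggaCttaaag
Sirpb1a: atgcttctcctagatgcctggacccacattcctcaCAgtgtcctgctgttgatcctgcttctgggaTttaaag

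The stretches just before the annotated starts were near copies too. The 157 bases before the annotated start are shown from the RefSeq promoter windows (GRCm38.p6, minus strand), at chr3:15848529-15848685 for Sirpb1c, chr3:15575066-15575222 for Sirpb1b and chr3:15426521-15426677 for Sirpb1a. Capitals mark the 9 positions at which the genes are not all alike.
Sirpb1c: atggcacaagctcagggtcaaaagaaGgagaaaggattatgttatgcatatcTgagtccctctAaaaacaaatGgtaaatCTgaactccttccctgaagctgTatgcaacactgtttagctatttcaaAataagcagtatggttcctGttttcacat
Sirpb1b: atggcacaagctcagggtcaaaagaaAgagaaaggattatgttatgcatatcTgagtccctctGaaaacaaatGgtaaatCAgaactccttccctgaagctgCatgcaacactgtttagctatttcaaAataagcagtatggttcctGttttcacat
Sirpb1a: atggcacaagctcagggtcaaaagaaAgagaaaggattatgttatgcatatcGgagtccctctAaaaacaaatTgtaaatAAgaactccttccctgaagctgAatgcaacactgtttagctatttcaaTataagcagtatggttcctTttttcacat
Sirpb1c differed from Sirpb1b at 4 of these 157 bases and from Sirpb1a at 8, and Sirpb1b differed from Sirpb1a at 7. RefSeq places the start of Sirpb1b at the same base as GENCODE, and those of Sirpb1c and Sirpb1a further downstream. Sirpa and Cd47 do not share this limit. Of the 3933 stretches of 50 bases in the longest coding Sirpa transcript, 0 occurred in a transcript of another gene. For Cd47, 42 of 5201 did, and 0 of these began in its first 100 bases. For Sirpb1c the number was 1053 of 1450, including all 100 that began in its first 100 bases.

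Total counts were 2227619 to 3650793 per C1q library and 2577429 to 2991562 per saline library. A count of 3 equals 0.822 to 1.35 CPM, depending on the library. The lowest count of any of the 5 genes was 19, for Sirpb1a in 1 saline library, and all 5 genes passed the filter on low counts. Lung epithelial, endothelial, fibroblast and myeloid markers were present in every library. Summed over Lyz2, Cd68, Csf1r, Itgam, Fcer1g and Spi1, pan-myeloid markers stood at 6487 to 7152 CPM in C1q libraries and 5016 to 8360 CPM in saline libraries, most of it from Lyz2, which alveolar type 2 cells also express. In bulk libraries fewer cells of a type and less RNA per cell cannot be told apart.

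Of the 5 genes, Sirpb1c had the largest difference, at 2.01 times its saline level in C1q lungs. It was at 33.2, 33.9 and 36.1 CPM in C1q replicates 1 to 3, against 15.8, 20.6 and 14.9 CPM in saline replicates 1 to 3. The C1q libraries lay close together and all above the highest saline library. The means were 34.4 ± 1.53 CPM in C1q lungs and 17.1 ± 3.09 CPM in saline lungs (SD, n = 3 each), a log2 fold change of 1.01 ± 0.19 (SE). Across the 13473 genes tested, 0.839% had a log2 fold change at least that large.

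Sirpb1b, its closest copy, was less far apart between the groups. Its levels were 25.4, 17.6 and 19.0 CPM in C1q replicates 1 to 3, against 18.3, 15.4 and 9.71 CPM in saline replicates 1 to 3. The groups overlapped, since C1q replicate 2 lay below saline replicate 1. The log2 fold change was 0.52 ± 0.27, and 0.30 without saline replicate 3, the library with the lowest level.

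Sirpb1a had the lowest count of the 3 copies in every library and showed no separation of the groups. It was at 15.8, 9.17 and 9.48 CPM in C1q replicates 1 to 3, against 13.2, 11.3 and 7.10 CPM in saline replicates 1 to 3. The highest value was in C1q replicate 1 and the lowest in saline replicate 3. The log2 fold change of 0.14 ± 0.33 turned to -0.18 without C1q replicate 1 and was 0.34 without saline replicate 1.

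Because the copies share most of their sequence, their counts were also summed, a step added after the separate values were seen. The sum was 74.4, 60.7 and 64.5 CPM in C1q replicates 1 to 3, against 47.3, 47.4 and 31.8 CPM in saline replicates 1 to 3. All 3 C1q libraries were above all 3 saline libraries. Means were 66.5 ± 7.08 CPM in C1q lungs and 42.1 ± 8.99 CPM in saline lungs, a 1.58-fold difference and a log2 fold change of 0.66 ± 0.19. This value does not depend on how reads were divided among the 3 genes, if each read was counted once. It would miss reads discarded for matching several genes, and would count repeatedly any read assigned to more than 1 of the 3.

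**Figure D2:**
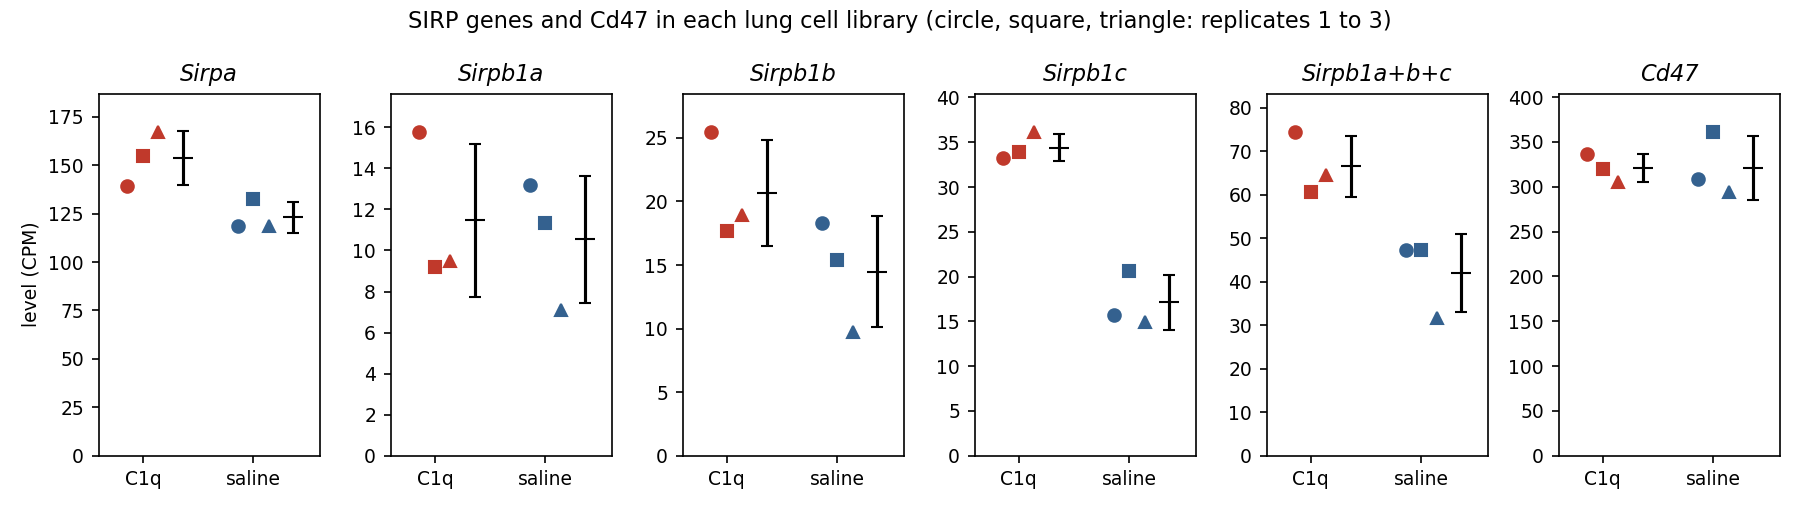
Level in CPM of each gene, and of the 3 Sirpb1 genes summed, in the 3 C1q libraries (red, left) and the 3 saline libraries (blue, right). Circle, square and triangle are replicates 1 to 3, the black bar is the mean ± SD and each panel has its own scale from 0. For Sirpa, Sirpb1c and the Sirpb1 sum all C1q points lie above all saline points, while Cd47 averages 320.9 CPM in both groups.

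The makeup of the summed counts was compared next. Sirpb1c made up 44.6%, 55.8% and 55.9% of the summed counts in C1q replicates 1 to 3, against 33.3%, 43.6% and 47.1% in saline replicates 1 to 3. The groups overlapped, as C1q replicate 1 was below saline replicate 3. The exact 95% binomial interval was 38.6% to 50.8% in C1q replicate 1 and 36.1% to 58.2% in saline replicate 3, and such intervals cover counting error only. The share of Sirpb1a averaged 17.0% ± 3.63 in C1q lungs and 24.7% ± 2.85 in saline lungs (SD, n = 3 each), and its 3 C1q values, up to 21.2%, lay below its lowest saline value of 22.4%. The share of Sirpb1b averaged 30.9% ± 2.88 in C1q lungs and 34.0% ± 4.29 in saline lungs, with overlapping values.

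**Figure D3:**
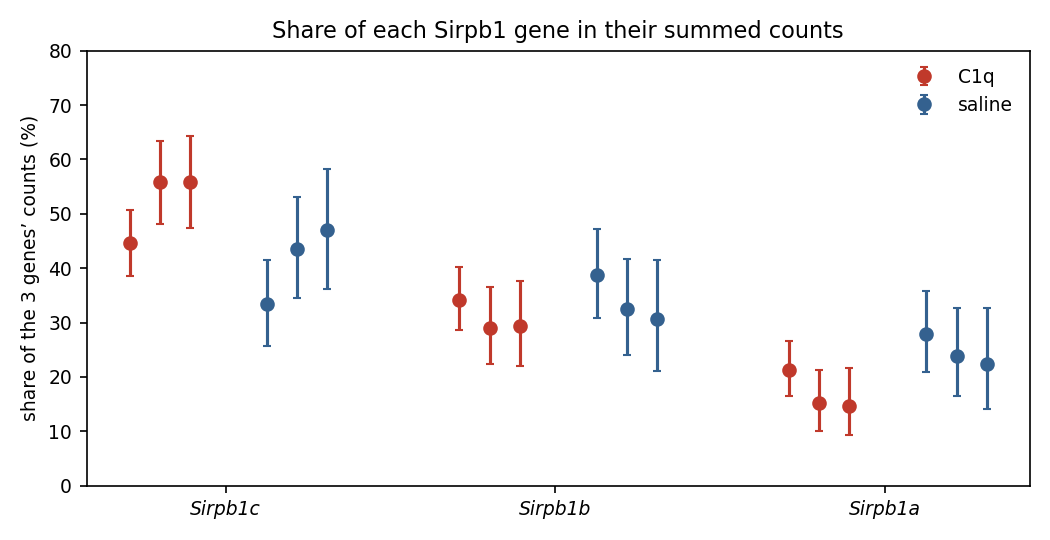
Share of each Sirpb1 gene in the summed counts of the 3 genes, in percent, with 1 point per library (C1q red, left; saline blue, right; replicates 1 to 3 in order) and exact 95% binomial intervals. Sirpb1c holds 44.6% to 55.9% in C1q libraries and 33.3% to 47.1% in saline libraries, so the ranges overlap.

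Sirpa, the inhibitory receptor, was 1.25 times as high on average in C1q lungs. It was at 139, 155 and 167 CPM in C1q replicates 1 to 3, against 119, 132 and 118 CPM in saline replicates 1 to 3. The lowest C1q library lay just above the highest saline library. The means were 153.7 ± 13.9 CPM in C1q lungs and 123 ± 8.00 CPM in saline lungs (SD, n = 3 each), a log2 fold change of 0.32 ± 0.14. Of all genes tested, 11.7% had a log2 fold change at least that large.

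Cd47, the ligand, had the same mean in both groups. It was at 337, 320.3 and 306 CPM in C1q replicates 1 to 3, against 308, 361 and 294 CPM in saline replicates 1 to 3. The saline values enclosed all C1q values. Means were 320.9 ± 15.6 CPM in C1q lungs and 320.9 ± 35.3 CPM in saline lungs, a fold change of 1.00 with a 95% interval of 0.798 to 1.255. The ratio of Sirpa to Cd47 counts, not corrected for length, was 0.414, 0.484 and 0.547 in C1q replicates 1 to 3 and 0.385, 0.367 and 0.403 in saline replicates 1 to 3.

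In the fit over all 13473 genes, 0 of the 5 genes passed edgeR's quasi-likelihood test at an adjusted p under 0.05, where 0.0297% of all genes did. DESeq2 also called 0 of the 5 and 0.238% of all genes, and limma-voom called 0 of the 5 and 0.0223% of all genes. At an unadjusted p under 0.05 there was 1 of 5, Sirpb1c, higher in C1q lungs. Of all genes, 8.16% reached that level, and 4.22% did so with the C1q level higher. All 3 C1q libraries lay above all 3 saline libraries for 2 of the 5, Sirpa and Sirpb1c, where this held for 8.12% of all genes. They lay below for 0 of the 5, where this held for 5.96% of all genes. All 5 log2 fold changes were above 0, that of Cd47 by 0.0008, as were 48.2% of all. Without a filter on low counts edgeR called 1 of the 5, Sirpb1c, and 373 of 26890 genes (1.39%). Since the list was drawn up with this contrast known, nothing is read from these counts.

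The levels were also set against markers of the cells that carry SIRPs. The log2 fold changes of the 6 pan-myeloid markers were all above 0, those of Itgam and Lyz2 by only 0.005 and 0.019. The median of the 6 was 0.31, beside -0.01 over all genes tested. Of these 6 markers, 0 passed the edgeR test and 0 had an unadjusted p under 0.05. Divided by each marker in turn, Sirpb1c was 1.55 to 1.95 times as high in C1q as in saline lungs. Its C1q ratios lay above all its saline ratios with all 6 markers. These ratios reuse the same Sirpb1c values, so they are not independent of each other or of the undivided difference. Before division, 8.12% of all genes separated the groups upward, and the share after division was not computed. Sirpb1b was at 1.07 to 1.40 times, and separated the groups with 1 marker, Itgam. Sirpa was at 0.953 to 1.23 times and Sirpb1a at 0.806 to 1.06 times, and neither separated the groups with any of the 6. Cd47 was at 0.756 to 0.971 times, with C1q ratios below all saline ratios for Cd68 and Spi1. Cd47 itself had the same mean in both groups, while the log2 fold changes of Cd68 and Spi1 were 0.35 and 0.42. Since CD47 is present on nearly all cells, these ratios do not give its level per myeloid cell.

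**Figure D4:**
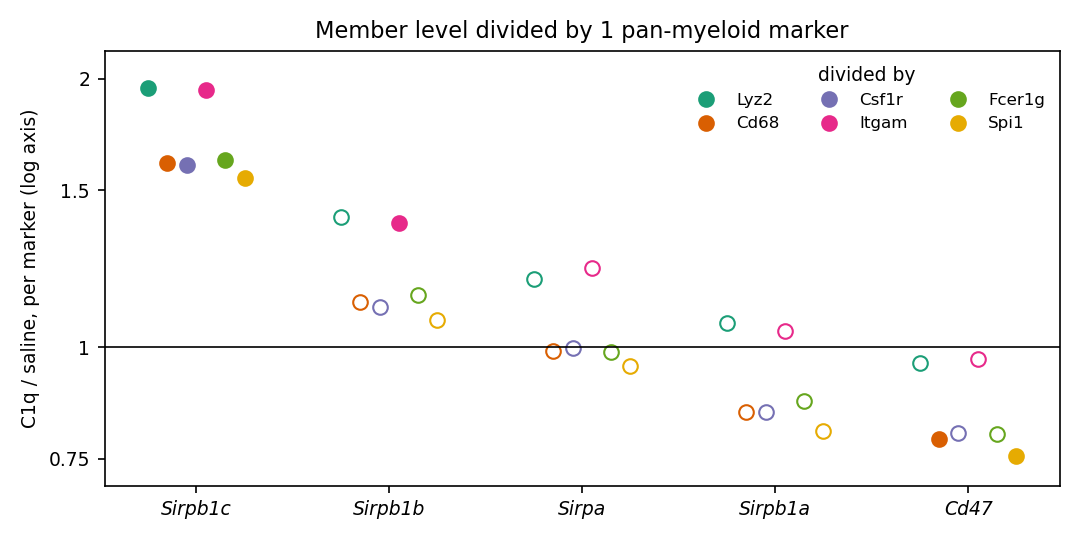
Ratio of C1q to saline means after each gene's level was divided, library by library, by 1 pan-myeloid marker (colours), on a log axis. Filled points are pairs whose C1q and saline libraries do not overlap. The 6 points of a gene all use the same values of that gene and are not independent. Sirpb1c is filled for all 6 markers at 1.55 to 1.95, and Sirpa lies between 0.953 and 1.23 with no filled point.

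Lists of markers of single myeloid types differed in direction, with a median log2 fold change of 0.29 for classical and -0.12 for non-classical monocyte markers. The 4 classical monocyte markers summed to 2434 to 2920 CPM in C1q libraries and 847 to 2158 CPM in saline libraries, and these sums were mostly 1 gene. Chil3, which alveolar macrophages also express, was at 2317 to 2783 CPM in C1q libraries and 749 to 2030 CPM in saline libraries, and the groups overlapped for each of the other 3 markers. The 4 non-classical monocyte markers summed to 1589 to 1706 CPM in C1q libraries and 1705 to 1912 CPM in saline libraries. Nearly all of this came from Nr4a1 and Ace, and which cells expressed these genes was not tested. Their log2 fold changes of -0.13 and -0.10 also set the median of this list. Nr4a1 was at 1200 to 1286 CPM in C1q libraries and 1270 to 1420 CPM in saline libraries. Of the 4 markers, 3 had a log2 fold change below 0, and the less abundant Treml4 and Cx3cr1 differed in direction, at 0.44 and -0.49. Cx3cr1, at 7.19 to 10.4 CPM in C1q libraries, was below the saline range in all of them. Of 5 tested interstitial macrophage markers, the 3 genes of C1q itself lay above the saline range in all C1q libraries. The 6 listed markers summed to 296 to 423 CPM in C1q libraries and 237 to 427 CPM in saline libraries. Most of each sum was Lyve1, at 190.5 to 283.5 CPM in C1q libraries and 195.7 to 345.3 CPM in saline libraries. Lyve1 had a log2 fold change of -0.22, so the overlap of the sums does not describe the other markers. Alveolar macrophage markers summed to 252 to 405 CPM in C1q libraries and 256 to 387 CPM in saline libraries, with 0 of 6 separating the groups. Car4 supplied most of this, at 178 to 294 CPM in C1q libraries and 176 to 257 CPM in saline libraries. These sums therefore mostly describe Car4, and whether it came from macrophages was not tested. Siglecf averaged 22.8 CPM in C1q lungs and 22.4 CPM in saline lungs, and Marco 20.9 and 23.1 CPM. Neutrophil markers summed to 60.5 to 104.5 CPM in C1q libraries and 51.1 to 94.3 CPM in saline libraries. Conventional dendritic cell markers summed to 54.6 to 70.2 CPM in C1q libraries and 50.8 to 62.0 CPM in saline libraries, and of 4 tested, Flt3 lay above and Clec9a below the saline range. Outside the myeloid lists, fibroblast markers summed to 851 to 960.5 CPM in C1q libraries and 624 to 682 CPM in saline libraries. Col1a1, at 265 to 390 CPM in C1q libraries and 135 to 208 CPM in saline libraries, and Dcn separated the groups. Pdgfra overlapped, with a log2 fold change of 0.08. Sums of endothelial, epithelial, T cell, B cell, NK cell and erythroid markers overlapped between the groups. Their median log2 fold changes were all below 0, from -0.85 for erythroid to -0.06 for epithelial markers. Of the T cell markers, Cd3e lay below the saline range, at 1.81 to 4.70 CPM in C1q libraries and 4.86 to 7.07 CPM in saline libraries. Cd3d and Cd3g overlapped. Of all 53 tested markers, 7 lay above and 3 below the saline range in all C1q libraries, beside 8.12% and 5.96% of all genes. None of the marker lists had a marker at 0 in every library. The part of these cells in the values of Sirpa and Sirpb1c was not tested.

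Partner genes of the pathway were taken by function, 29 genes of which 28 had enough counts to test. Of these, 0 rose and 0 fell by edgeR's test, and DESeq2 and limma-voom called 0. An unadjusted p under 0.05 was reached by 3, all higher in C1q lungs, as by 4.22% of all genes. Their median log2 fold change was 0.14, beside -0.01 over all genes. All 3 C1q libraries were above the saline range for 5 of 28 and below it for 0, beside 8.12% and 5.96% of all genes.

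The phosphatases and adaptors that act downstream of SIRPA all had small differences. The phosphatase genes were Ptpn11 (SHP-2), with a log2 fold change of 0.17 ± 0.14, and Ptpn6 (SHP-1), with 0.15 ± 0.24. The adaptor genes were Fyb at 0.26 ± 0.22 and Skap2 at 0.15 ± 0.15, and the kinase gene Ptk2b was at 0.03 ± 0.16. In this list 0 of 5 passed, with edgeR adjusted p of 0.739 or more, and their groups overlapped.

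On the activating side, Tyrobp, whose product carries the SIRPB1 signal, was not higher in C1q lungs. It was at 168, 145 and 134 CPM in C1q replicates 1 to 3, against 186, 319 and 102 CPM in saline replicates 1 to 3. Saline replicate 2 stood far above the other libraries, and the log2 fold change of -0.44 ± 0.32 became 0.06 without it. The kinase gene Syk was at 0.09 ± 0.16, the exchange factor gene Vav1 at -0.19 ± 0.23 and the phospholipase gene Plcg2 at 0.32 ± 0.25. In this list 0 of 4 passed, with edgeR adjusted p of 0.710 or more.

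Among other ligands, the surfactant protein D gene Sftpd had the smallest p. It was at 1076, 836 and 922 CPM in C1q replicates 1 to 3, against 680, 834 and 576 CPM in saline replicates 1 to 3. The C1q libraries were just above the saline range, and the log2 fold change of 0.44 ± 0.18 did not pass (edgeR adjusted p = 0.602). Sftpa1 was at 0.03 ± 0.20, and Thbs1, for the CD47 ligand thrombospondin-1, at 0.15 ± 0.17. Thbs2 had too few counts to test.

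Qpct and Qpctl, listed for CD47 maturation, and the genes of the integrin partners of CD47 did not pass either. Qpctl, whose product modifies the CD47 amino terminus, was at 0.13 ± 0.31. Qpct was at 0.36 ± 0.18 (edgeR adjusted p = 0.616), with C1q libraries above the saline range. Itgav was at 0.14 ± 0.21 and Itgb3 at 0.10 ± 0.22.

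Other inhibitory receptors of myeloid cells had a median log2 fold change of 0.42 over 9 genes, with 0 passing. The smallest p was that of Lilrb4a, an inhibitory immunoglobulin-like receptor. It was at 118, 95.2 and 104 CPM in C1q replicates 1 to 3, against 69.1, 72.9 and 68.0 CPM in saline replicates 1 to 3. All C1q libraries were well above the saline libraries, with a log2 fold change of 0.60 ± 0.15 (edgeR adjusted p = 0.383). Pirb and Clec4a2 also had no overlap between the groups, at 0.54 ± 0.28 and 0.80 ± 0.31, and were picked out after their values were seen. The groups overlapped for the rest of this list. Lair1 was at 0.56 ± 0.34, Cd300lf at 0.42 ± 0.24, Pilra at 0.09 ± 0.24 and Cd300a at 0.09 ± 0.20. Cd200r1 was at -0.13 ± 0.37 and Siglece at -0.32 ± 0.37. Of the ligands of such receptors, B2m had the smallest p, with a log2 fold change of -0.22 ± 0.21 (edgeR adjusted p = 0.776). Cd200 was at -0.11 ± 0.19 and Cd24a at -0.00066 ± 0.17.

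**Figure D5:**
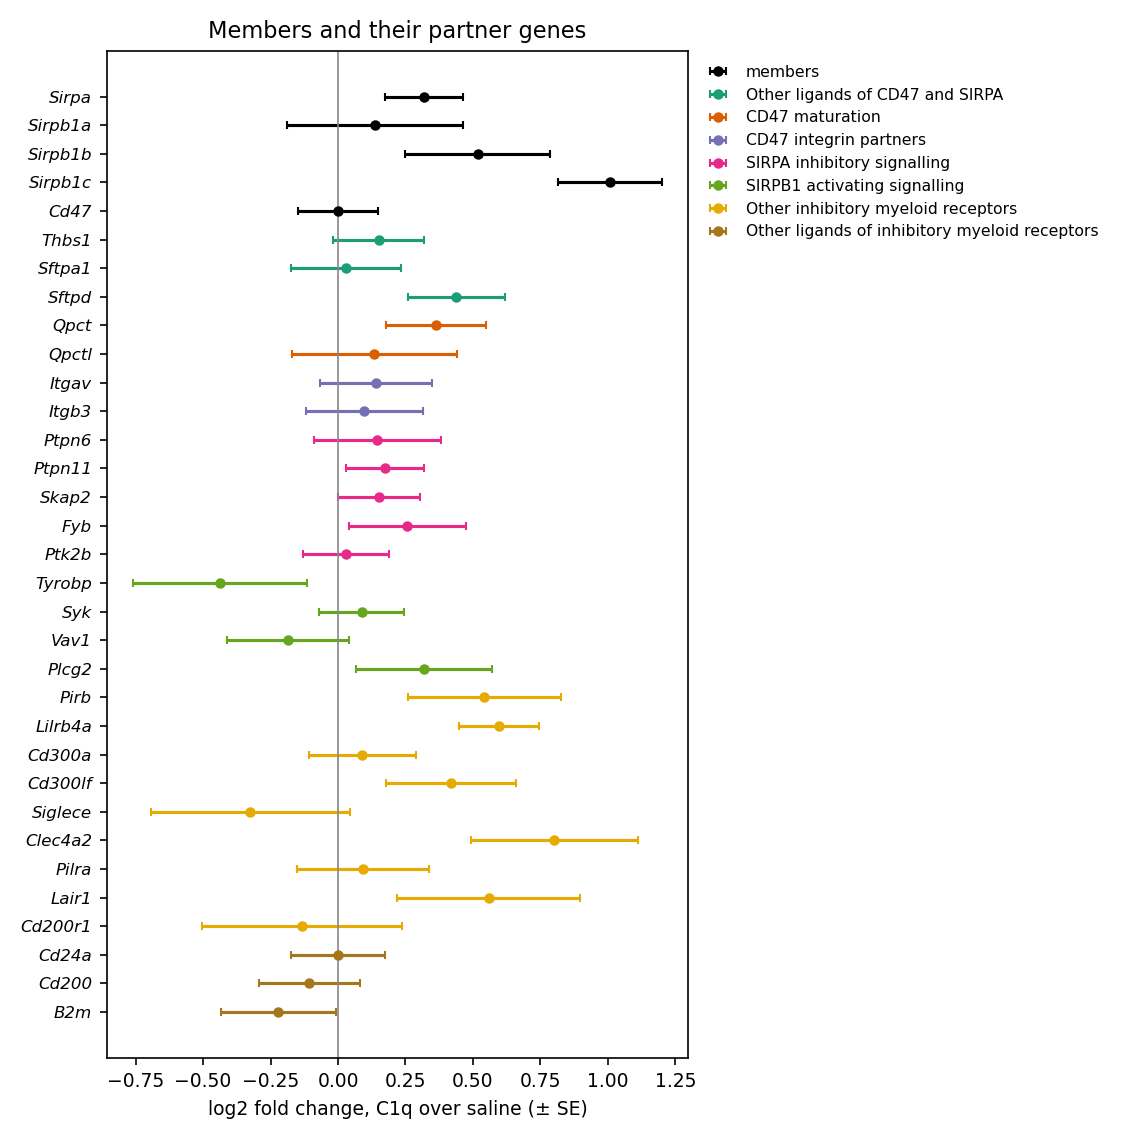
Log2 fold change of C1q over saline with its SE for the 5 genes (black) and the 28 tested partner genes, coloured by list. Sirpb1c at 1.01 lies furthest to the right, and Tyrobp at -0.44 furthest to the left.

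Genes with the most similar pattern over the 6 libraries were found by the root mean square difference in centred log2 level, among genes of at least 20 CPM on average. For Sirpb1c these were Col16a1, a collagen gene (0.12), Cfp, for the complement protein properdin (0.12), and Nek6, a kinase gene (0.13). For Sirpa they were Plat (0.04), Tfrc (0.05) and Gfpt1 (0.05), which encode tissue plasminogen activator, the transferrin receptor and an enzyme of the hexosamine pathway. For Cd47 they were Srp72, Gorasp2 and Slc25a1, each at 0.03.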

How the data were processed

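The values deposited by the authors are raw counts, whole numbers per gene symbol, with no normalization. Per the labels' protocols, libraries of poly(A) RNA from lung cells were read from the 5′ end. Per the submitters' processing notes, cutadapt 2.1.0, Bowtie2 2.4.2 and GRCm38 were used. The sources used here do not give the counting step, annotation, strand use, read length or molecule collapsing.

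Groups come from the treatment label. Replicates were numbered 1 to 3 in accession order and pair nothing. Replicates differed by more than counting noise (chi-square per degree of freedom 5.04 to 16.4), and each counted as 1 sample. Filtering (filterByExpr, 13473 of 26890 genes), TMM scaling and quasi-likelihood tests used edgeR 4.0.16 with treatment as the only term, with Benjamini-Hochberg adjustment over all genes kept. CPM are on TMM library sizes. The test was run on simulated data first. DESeq2 1.42.0 and limma 3.58.1 (voom) were alternatives. Sequences come from GENCODE M21 and the RefSeq promoter table, which held 4 of the 5 genes. Sirpa had no entry. No protein sequences were used.

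The summed Sirpb1 counts were added after the data were seen. The 5 genes, partner lists, markers and naming rules were chosen with earlier results of these data known. The rule named all 5 genes, every passing partner and the one of smallest p per list, all SIRPA and SIRPB1 signalling genes, and the 3 most similar genes for each of Sirpa, Cd47 and the Sirpb1 gene of highest level. Lists of up to 4 genes and the list of other inhibitory receptors are given in full, a choice made after their values were seen.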

Additional observations from a re-analysis of the deposited data

How the results depend on the processing

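The log2 fold changes of the 5 genes moved by less than the spread between replicates under all 13 alternatives: 3 other scalings, 2 other filters, 2 other tests and each library left out. With 1 library left out, Sirpb1c ranged from 0.92 to 1.16, Sirpa from 0.26 to 0.39, Sirpb1b from 0.30 to 0.73, Sirpb1a from -0.18 to 0.34 and Cd47 from -0.06 to 0.10. The summed Sirpb1 counts ranged from 0.50 to 0.76. The count of genes called over the whole table was 4 (4 higher, 0 lower). It was 373 with no filter on low counts (158 higher, 215 lower), which is 1.39% of the 26890 genes. That setting called 1 of the 5 genes, Sirpb1c. Nothing is read from this, since the list was drawn up with the contrast known. With DESeq2 the count of genes called was 32 (31 higher, 1 lower). It ranged from 0 to 10 with 1 library left out, with 0 to 9 higher and 0 to 1 lower. Partner calls were 0 in either direction throughout. All 28 tested partners and both neighbours of the Sirpb1 genes were refitted too, although the stricter filter drops some low ones. Under another scaling or filter, 2 partners changed sign, Ptk2b to -0.018 with library size only and Cd24a to 0.030 with no filter. With 1 library left out, 12 partners and both neighbours took either sign. Their log2 fold changes ranged from -0.13 to 0.26 for Sftpa1, -0.12 to 0.35 for Qpctl, -0.012 to 0.40 for Itgav, -0.077 to 0.23 for Itgb3, -0.027 to 0.35 for Ptpn6, -0.053 to 0.088 for Ptk2b, -0.76 to 0.057 for Tyrobp, -0.011 to 0.16 for Syk, -0.087 to 0.22 for Pilra, -0.30 to 0.072 for Cd200r1, -0.11 to 0.12 for Cd24a and -0.25 to 0.031 for Cd200. Gm9733 ranged from -0.37 to 0.78 and Gm5150 from -0.31 to 0.36. The cause was not tested. No paired analysis was possible because the labels share no replicate numbers between the groups. With 19 to 120 counts per library, the Sirpb1 genes were measured with less precision than Sirpa or Cd47.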

Other observations

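The Sirpb1 genes are flanked on chromosome 3 by 2 further minus-strand coding genes, Gm9733 (chr3:15296551-15332302) and Gm5150 (chr3:15946870-16006437). No coding gene other than the Sirpb1 genes lies between them. Gm5150 was at 14.1, 6.35 and 7.67 CPM in C1q replicates 1 to 3, against 9.32, 7.69 and 8.96 CPM in saline replicates 1 to 3, with overlapping groups and a log2 fold change of 0.14 ± 0.35. Gm9733 was at 6.08, 3.17 and 4.96 CPM in C1q replicates 1 to 3, against 7.07, 5.26 and 0.373 CPM in saline replicates 1 to 3, the last resting on 1 count. Neither gene separated the groups as the summed Sirpb1 counts did, and that difference was not tested.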
